A study of Arabidopsis thaliana with 4 samples.

Results

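The Arabidopsis genome numbers every locus, and many loci still carry only that number. Of the 24252 genes listed in at least 1 of 4 seedling RNA-seq libraries, 12522 appeared in the deposited files with an identifier and no symbol. From these unnamed genes, 97 were chosen by their levels. Each had at least 5 FPKM in both libraries of one genotype and, in both libraries of the other, under 5% of the first genotype's mean, with a gene missing from a file set to 0. FPKM are fragments per kilobase of transcript, scaled to the mapped fragments of the library. By this rule 82 genes were present in fer-4 and nearly absent in WT, and 15 were present in WT and nearly absent in fer-4. The 6685 other unnamed genes with at least 5 FPKM in both libraries of a genotype serve as the comparison for features that the rule did not use.

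The fer-4 libraries came from seedlings labelled FERONIA-/-, mutant for FERONIA (FER), which encodes a receptor kinase of the cell surface, and the WT libraries from wild type, with 2 libraries per genotype. Per the labels, all seedlings were of ecotype Col-0, were 7 days old and were untreated, and they grew on vertical plates under a daily cycle of 16 h light and 8 h dark. The labels name 1 mutant allele and no complemented line, so the FER lesion and any other inherited difference between the lines cannot be told apart. Nothing in the labels tells if the replicates were separate cultures, so the p-values reflect only how far these libraries differ, which could be technical in origin. FER itself measured 60.6 and 62.1 FPKM in fer-4 and 89.0 and 91.9 FPKM in WT (log2 fold change -0.55 ± 0.08, SE, limma adjusted p = 0.00638). Reads of the gene thus remained in fer-4, but gene-level values cannot show if a full transcript did. The leaf gene RBCS1A measured 8348 and 6576 FPKM in fer-4 and 8978 and 9495 FPKM in WT. The root gene PYK10 measured 2010 and 2328 FPKM in fer-4 and 1688 and 1703 FPKM in WT. The root gene CASP1 lay between 52.7 and 64.6 FPKM. The light-harvesting genes LHCB1.1 and LHCB2.1 lay between 3.15 and 8.71 FPKM, each higher in both fer-4 libraries than in both WT libraries. The root phosphate transporter gene PHT1;1 measured 42.3 and 46.1 FPKM in fer-4 and 30 and 25.7 FPKM in WT. Of 4 seed storage genes, CRU1, CRU3 and SESA3 were listed at 0 in all 4 libraries, and SESA1 measured 1.34 and 1.05 FPKM in fer-4 and was at 0 in both WT libraries. Whether tissue makeup bears on the values below was not tested. The files hold no counts. From the lowest listed values, the libraries were estimated at 19.6 to 21.4 M fragments, so that a 1500 bp transcript at 5 FPKM would have received 147 to 160 of them.

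Several kinds of gene recur among the 97, and some background helps to read them. NLR proteins, described in the annotation as disease resistance proteins of the TIR-NBS-LRR class, are receptors inside the cell that recognise pathogen effectors, and their genes often lie in clusters of related copies. F-box proteins bring target proteins to a ubiquitin ligase for degradation, and their genes form one of the largest plant families. Long non-coding RNAs and pseudogenes give transcripts with no annotated intact protein product, often next to or opposite another gene.

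The 82 genes present in fer-4 had means between 5.32 and 166 FPKM in fer-4, with a median of 13.1 FPKM. Together they summed to 1730 and 1810 FPKM in the fer-4 libraries, against 8.16 and 56.4 FPKM in WT replicates 1 and 2. The 15 genes present in WT summed to 0.567 and 1.19 FPKM in the fer-4 libraries, against 488 and 463 FPKM in WT, with WT means between 5.23 and 166 FPKM. All 97 genes passed the filter of the genome-wide comparison and all were called at an adjusted p under 0.05 (limma), 82 higher and 15 lower in fer-4. Over the 19183 genes tested, 14.3% were called higher and 9.00% lower (2743 and 1726 genes, or 2285 and 2364 with quantile normalisation). The rule used this contrast, so the members' calls are a description and nothing is read from them.

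**Figure D1:**
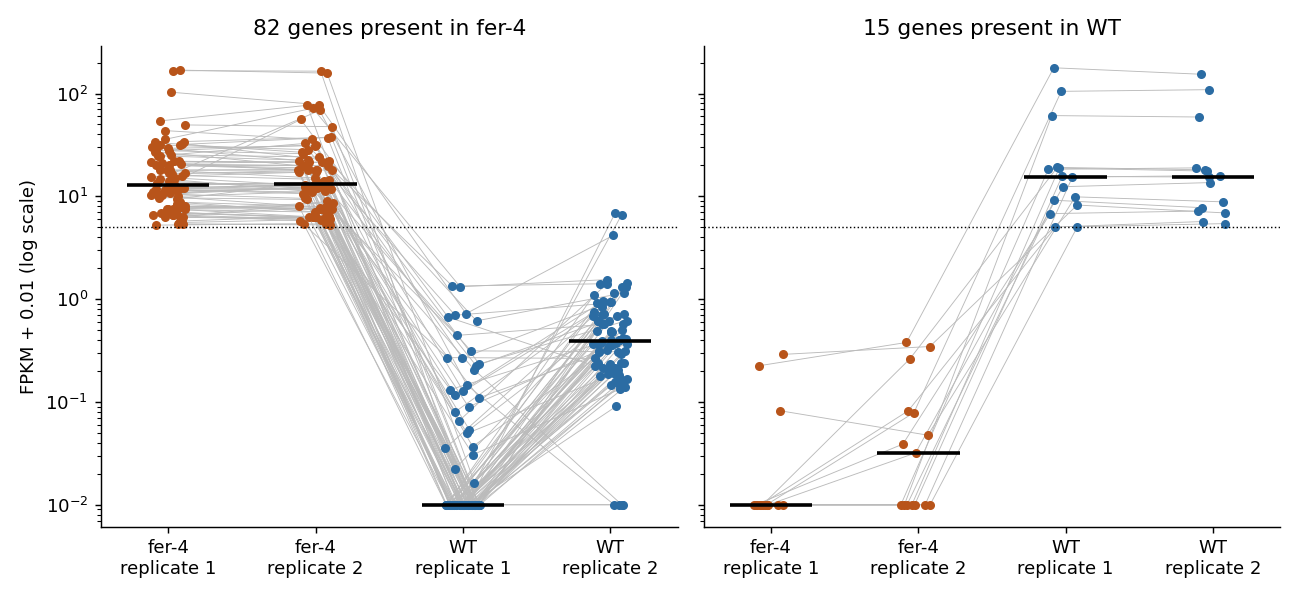
FPKM of each gene in each library, plus 0.01, on a log scale, for the 82 genes present in fer-4 (left) and the 15 present in WT (right). Each point is a gene, grey lines join the same gene, black bars are medians, and the dotted line marks 5 FPKM. In WT replicate 1 most of the 82 genes sit at 0, while in WT replicate 2 most sit above it.

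The WT libraries differed in what remained of the 82 genes. In WT replicate 1, 54 of the 82 were not listed, and in WT replicate 2 only 4 were not. In WT replicate 1 the median level was 0% of the fer-4 mean (upper quartile 0.37%) and 3.02% in WT replicate 2 (quartiles 2.36% and 3.89%). WT replicate 2 was the higher of the WT libraries in 75 of the 82 genes, and 52 were listed in it alone. By the estimate of depth, this came to 194 fragments over all 82 genes in WT replicate 1 and 1844 in WT replicate 2, or a median of 13.2 fragments a gene in that library. The rule applied without WT replicate 2 gave 97 genes, and without WT replicate 1 it gave 83. The rule capped both libraries at 5%, so the difference was seen within that cap. Its source was not tested.

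**Figure D2:**
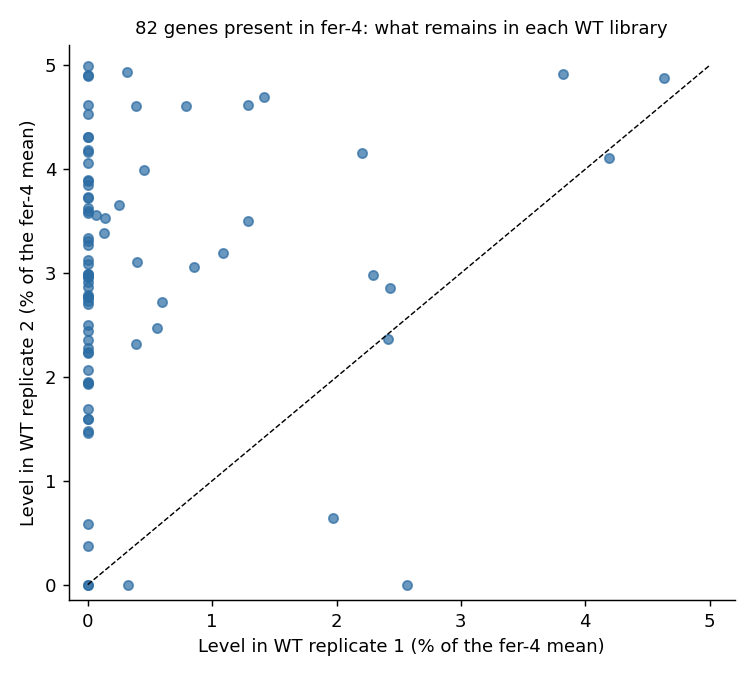
Level of each of the 82 genes in WT replicate 2 against its level in WT replicate 1, both as a percentage of the gene's fer-4 mean. The dashed line marks equal levels. Most points lie on the vertical axis or above the line, with a WT replicate 2 median of 3.02%.

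Of the 82, 10 departed from this pattern, with WT replicate 1 at 50% or more of WT replicate 2. AT1G66090, a gene of the TIR-NBS class, measured 24.7 and 32.7 FPKM in fer-4 and 1.33 and 1.40 FPKM in WT. AT2G38240, an oxygenase gene of the 2-oxoglutarate class, measured 16.6 and 68.4 FPKM in fer-4 and 0.136 and 0 FPKM in WT. AT4G12490, annotated with a lipid-transfer and protease inhibitor domain, measured 10.9 and 55.9 FPKM in fer-4 and 0.658 and 0.213 FPKM in WT. AT5G43580, a serine protease inhibitor of the potato inhibitor I type that RefSeq calls UPI, measured 35.9 and 71.9 FPKM in fer-4 and 1.31 and 1.54 FPKM in WT. In these genes the WT libraries were alike or replicate 1 was the higher. The last 3 were also the only members whose fer-4 libraries lay more than 2-fold apart (3 of 82), against 21 of the 6382 other unnamed genes present in fer-4 (0.329%). The remaining 6 were AT1G53903, AT1G68945, AT2G04800, AT3G26612, AT5G53820 and AT5G54720. The fer-4 libraries were otherwise close: the median difference between them was 0.14 on the log2 scale in the 82 genes and 0.12 in the other unnamed genes.

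Most of the 97 genes encode proteins, but fewer than in the comparison genes. Protein-coding genes made up 69 of the 97 (71.1%), against 98.4% of the 6685 other unnamed genes. Non-coding RNAs made up 16 (16.5%, against 1.11%) and pseudogenes 12 (12.4%, against 0.359%). Non-coding RNAs were 15.9% of the 82 genes present in fer-4 and 20.0% of the 15 present in WT. A single exon was annotated for 36.1% of the members and 14.8% of the comparison genes, with 34.1% of the genes present in fer-4 and 46.7% of those present in WT. Whether the directions differ was not tested. Many of the single-exon members are non-coding RNAs or pseudogenes counted above, so these features overlap. Among protein-coding genes, 13 of 69 (18.8%) had a coding sequence of at most 300 bp, against 4.87%. These shares are descriptions of annotated features, with no test.

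**Figure D3:**
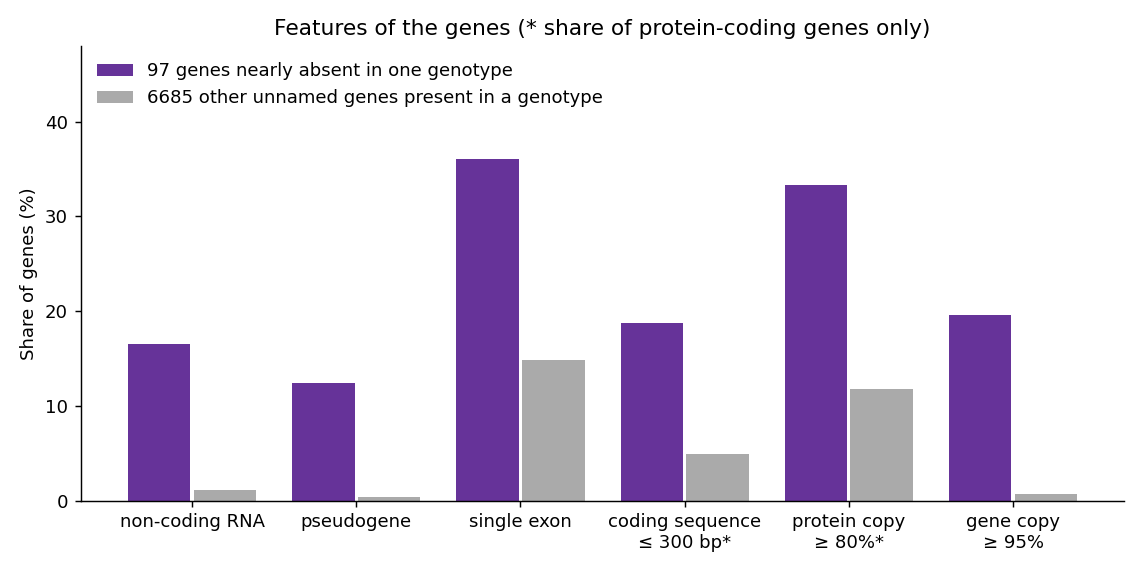
Share of genes, in percent, with each annotated feature among the 97 genes nearly absent in one genotype (purple) and the 6685 other unnamed genes (grey). Asterisks mark shares of protein-coding genes only. All 6 features were more frequent among the 97, from 12.4% against 0.359% for pseudogenes to 36.1% against 14.8% for single exons. A gene can count under several features.

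By whole words in the annotation's descriptions, the disease resistance family held 8 of the 97 genes (8.25%), against 0.673% of the comparison genes. The F-box family held 6 (6.19%, against 0.987%). All of the genes of both families were present in fer-4. Genes described as hypothetical, unknown, uncharacterized or transmembrane proteins made up 27 (27.8%, against 11.9%). They include pseudogenes already counted above, such as AT2G06950 and AT4G16870, so this share partly recounts those. Kinases held 1 gene (1.03%, against 5.07%), transferases 1 and zinc fingers 0. No lectin, defensin, TRAF or transposon description occurred, and each of these families held at most 0.404% of the comparison genes. Pseudogenes among the members were described as uncharacterized or not at all, so the search could not tell if any was a transposon. Family copies that lie side by side are counted singly here, and 5 of the 6 F-box genes lie in 1 cluster.

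The most abundant gene present in fer-4 was AT4G34881, a short protein gene of unknown function, with 167 and 165 FPKM in fer-4 and 0 and 6.94 FPKM in WT. It lies on chromosome 4 (TAIR10.1 16617608 to 16618573, plus strand) opposite AT4G34890, which encodes xanthine dehydrogenase 1, an enzyme of purine breakdown. The partner went the other way, with 22.6 and 25.9 FPKM in fer-4 and 49.8 and 47.7 FPKM in WT (log2 fold change -0.98, limma adjusted p = 0.00162). With the strand setting not given in the sources used here, reads of such overlapping pairs cannot be told apart.

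Next came AT1G25098, a long non-coding RNA in the F-box cluster, with 169 and 158 FPKM in fer-4 and 0.00637 and 6.64 FPKM in WT. AT5G44580, a short gene of unknown function, measured 103 and 77.9 FPKM in fer-4 and 0.712 and 4.17 FPKM in WT. AT1G66100 encodes a thionin, a small antimicrobial peptide, and measured 54.1 and 76.8 FPKM in fer-4 and 0 and 0.382 FPKM in WT. These genes did not overlap between genotypes, by the rule. AT2G04378, described as related to beta-galactosidase, measured 49.5 and 47.6 FPKM in fer-4 and 0 and 1.44 FPKM in WT. AT1G65190, a protein kinase gene, measured 43.6 and 35.8 FPKM in fer-4 and 0.0559 and 1.40 FPKM in WT. The gene beside it, AT1G65200, was low in fer-4 instead, with 0 and 0.131 FPKM in fer-4 and 4.75 and 3.94 FPKM in WT. AT1G23960, of unknown function, measured 34.1 and 37.6 FPKM in fer-4 and 0 and 1.29 FPKM in WT. AT3G47250, a putative transmembrane protein gene, measured 31.9 and 37.3 FPKM in fer-4 and 0 and 1.29 FPKM in WT. AT1G73490, an RNA-binding protein gene, measured 29.3 and 31.1 FPKM in fer-4 and 0.257 and 0.924 FPKM in WT. With AT5G43580, AT2G38240 and AT4G12490, these make up the 12 highest means in fer-4.

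In the disease resistance family, values were lower than in these genes. AT1G66090 had the highest fer-4 mean of the 8, at 28.7 FPKM. AT1G63880 measured 27.1 and 19.7 FPKM in fer-4 and 0 and 0.910 FPKM in WT, and AT4G19510 measured 21.5 and 18.0 FPKM in fer-4 and 0.0255 and 0.669 FPKM in WT. AT5G46510, AT5G36930, AT1G63860, AT4G36140 and AT5G51630 had fer-4 means between 6.11 and 9.15 FPKM, were at 0 in WT replicate 1, and lay between 0.192 and 0.356 FPKM in WT replicate 2. Of the 8, 5 lie in runs of neighbouring members. AT5G46520, next to AT5G46510 and 92.7% identical to it in protein sequence, measured 6.65 and 5.44 FPKM in fer-4 and 0.0488 and 0.303 FPKM in WT. This gene is VICTR in the files and so no member (log2 fold change 2.59, adjusted p = 0.000574).

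The 15 genes present in WT and nearly absent in fer-4 were led by 3 that have no annotated protein. AT2G05914, a long non-coding RNA, measured 0.215 and 0.369 FPKM in fer-4 and 178 and 154 FPKM in WT. AT2G15555, a non-coding RNA, measured 0 and 0.0687 FPKM in fer-4 and 105 and 109 FPKM in WT. AT5G33251, a transcribed pseudogene, was at 0 in both fer-4 libraries and measured 61.0 and 59.1 FPKM in WT. The first 120 bases of each annotated gene are shown because the identifier alone says nothing of these transcripts (RefSeq, TAIR10.1). They lie at chr2:2264424-2264543 on the minus strand, chr2:6786857-6786976 on the minus strand and chr5:12499072-12499191 on the plus strand.
AT2G05914: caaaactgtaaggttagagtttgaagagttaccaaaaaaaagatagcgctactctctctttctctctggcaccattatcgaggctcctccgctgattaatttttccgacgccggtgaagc
AT2G15555: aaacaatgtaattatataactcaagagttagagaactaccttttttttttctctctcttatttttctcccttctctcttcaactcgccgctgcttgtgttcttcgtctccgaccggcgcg
AT5G33251: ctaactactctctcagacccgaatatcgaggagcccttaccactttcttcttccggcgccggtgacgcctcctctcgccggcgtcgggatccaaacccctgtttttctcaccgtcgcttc

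The other 12 were lower, with WT means up to 18.6 FPKM. AT4G24420, an RNA-binding protein gene, measured 0 and 0.253 FPKM in fer-4 and 19.1 and 18.1 FPKM in WT. AT4G19240, of unknown function, was at 0 in both fer-4 libraries and measured 18.3 and 18.9 FPKM in WT. AT3G28320, also of unknown function, was likewise at 0 in both fer-4 libraries and measured 18.8 and 17.6 FPKM in WT. Its neighbour 14.1 kb away, AT14A, met the same limits in the other direction. AT4G15242, a non-coding RNA, was at 0 in both fer-4 libraries and measured 15.6 and 15.4 FPKM in WT. AT5G27010, an ARM repeat protein gene, measured 0 and 0.0219 FPKM in fer-4 and 12.4 and 13.6 FPKM in WT. AT1G63540, described as a hydroxyproline-rich glycoprotein gene, measured 0 and 0.0289 FPKM in fer-4 and 6.78 and 7.18 FPKM in WT. AT2G02700, of the cysteine and histidine rich C1 domain family, measured 0.280 and 0.336 FPKM in fer-4 and 8.22 and 6.89 FPKM in WT, and it was the member of this direction nearest to the limit (4.44%). The pseudogene AT1G60020 was at 0 in both fer-4 libraries and measured 5.05 and 5.42 FPKM in WT. In all, both fer-4 libraries lacked 7 of the 15.

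AT1G19550, a short glutathione S-transferase family gene, measured 0 and 0.0719 FPKM in fer-4 and 5.02 and 5.68 FPKM in WT. Both genes nearest to it in sequence and place went up in fer-4. AT1G19570, whose protein is 82.8% identical, measured 473 and 685 FPKM in fer-4 and 193 and 198 FPKM in WT (log2 fold change 1.54, limma adjusted p = 0.00297). AT1G19540, which overlaps it on the other strand, measured 6 and 9.41 FPKM in fer-4 and 0.972 and 1.44 FPKM in WT (log2 fold change 1.96, adjusted p = 0.00258).

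The 2 members of the Cornichon family, whose proteins act as cargo receptors for export from the endoplasmic reticulum, went in opposite directions. AT1G12340 measured 0.0720 and 0.0375 FPKM in fer-4 and 9.88 and 8.83 FPKM in WT. AT1G12390, which lies 21.8 kb away on the same strand, measured 27.9 and 31.6 FPKM in fer-4 and 0.117 and 0.923 FPKM in WT. Their proteins were 97.4% identical over 89.9% of the AT1G12340 protein. The 4 listed genes between them, AT1G12350 (PPCS1), AT1G12360 (KEU), AT1G12370 (PHR1) and AT1G12380, were tested and not called, with log2 fold changes between -0.14 and 0.43. The last 240 bases of each coding sequence are shown because these genes are the only pair of close copies that split between the genotypes (RefSeq, TAIR10.1, chromosome 1, plus strand). Capitals mark the 4 bases that differ.
AT1G12340: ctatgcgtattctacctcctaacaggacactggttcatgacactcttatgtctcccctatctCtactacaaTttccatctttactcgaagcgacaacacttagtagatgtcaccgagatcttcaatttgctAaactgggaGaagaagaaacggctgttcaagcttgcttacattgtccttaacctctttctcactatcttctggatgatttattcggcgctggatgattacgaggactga
AT1G12390: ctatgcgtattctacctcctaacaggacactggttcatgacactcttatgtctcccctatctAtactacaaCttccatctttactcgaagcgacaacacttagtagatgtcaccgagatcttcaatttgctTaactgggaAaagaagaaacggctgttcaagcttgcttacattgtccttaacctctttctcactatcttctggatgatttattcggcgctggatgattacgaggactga

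Close copies were frequent among the members. Of 69 protein-coding members, 23 (33.3%) had another protein in the genome at least 80% identical over at least 80% of its length, against 11.8% of the comparison genes. A copy elsewhere in the genome, at least 95% identical over at least 80% of the gene sequence, was found for 19 of the 97 (19.6%, against 0.734%). Among the 19 are AT4G34881 and AT1G25098, which had the highest means in fer-4. The authors' way of dividing reads between such copies was not given in the sources used here, so single values of these genes are uncertain. In 12 of the 23, the closest copy was itself a member, so these 12 are not independent of each other. In 2 (AT1G52905 and AT5G05060) the closest copy was listed in no library, and in 9 it was listed and no member.

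Of those 9 listed copies, 8 were tested and 3 were called. AT5G28350, described as a RIC1-like exchange factor gene, measured 16.7 and 18.1 FPKM in fer-4 and 0.224 and 0.609 FPKM in WT. Its copy on chromosome 3, AT3G61480, with a 98.1% identical protein, measured 14.6 and 15.3 FPKM in fer-4 and 13.4 and 14.0 FPKM in WT and was not called (log2 fold change 0.12 ± 0.09, SE, limma adjusted p = 0.373). The coding sequences differed at 46 aligned bases. The stretch shown covers coding positions 1711 to 1890 of AT5G28350 and 1699 to 1878 of AT3G61480, counted from the start codon, and is shown because it holds several of these differences (RefSeq, TAIR10.1, plus strand of both). Capitals mark the 7 differing bases.
AT5G28350: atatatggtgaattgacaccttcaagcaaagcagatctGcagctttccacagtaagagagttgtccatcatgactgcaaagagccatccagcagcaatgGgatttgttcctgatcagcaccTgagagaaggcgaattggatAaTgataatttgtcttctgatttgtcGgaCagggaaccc
AT3G61480: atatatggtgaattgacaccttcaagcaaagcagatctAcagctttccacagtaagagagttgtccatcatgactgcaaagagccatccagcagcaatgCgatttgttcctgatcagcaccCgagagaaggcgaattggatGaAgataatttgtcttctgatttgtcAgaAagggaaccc

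The copies of 4 other members were tested and not called either: AT2G37470, a histone gene like AT3G53650, AT2G44525 (copy of AT3G60150), AT4G12500 (copy of AT4G12490) and AT4G15630 (copy of AT4G15620). Their adjusted p-values lay between 0.0732 and 0.133. A p that misses the threshold does not show that these genes were unchanged. AT1G53885, whose coding sequence is identical to that of AT1G53903, measured 10.7 and 12.4 FPKM in fer-4 and 2.02 and 1.81 FPKM in WT (log2 fold change 2.11, limma adjusted p = 0.000353). AT1G53903 itself measured 10.4 and 12.3 FPKM in fer-4 and 0.434 and 0.558 FPKM in WT. This gene also lies 37.7 kb from ESP, a regulator of glucosinolate breakdown that met the same limits in the other direction.

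Chromosomes 1 to 5 held 28, 15, 16, 19 and 19 of the members. This is 28.9%, 15.5%, 16.5%, 19.6% and 19.6%, beside 26.3%, 14.5%, 19.0%, 15.4% and 24.8% of the comparison genes. The next member was a median of 289 kb away, and 18 members had none within 1000 kb. By the files' Locus column, 29 of the 97 lay within 100 kb of another member, in 11 runs. Of these, 9 runs held members of 1 direction and 2 held both. Another 8 members lay within 100 kb of a named gene that met the same limits. Whether members lie closer together than other unnamed genes was not tested.

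The longest run by number held 7 genes over 69.9 kb of chromosome 1 (8769659 to 8839549), all present in fer-4. Of these, 5 are F-box genes. AT1G24800 measured 20.1 and 19.9 FPKM in fer-4 and 0 and 0.597 FPKM in WT. AT1G24881, AT1G25055, AT1G25150 and AT1G25211 had fer-4 means between 6.24 and 13.2 FPKM, were at 0 in WT replicate 1 and lay between 0.179 and 0.470 FPKM in WT replicate 2. AT1G24996, an uncharacterized gene, measured 20.9 and 21.7 FPKM in fer-4 and 0 and 0.712 FPKM in WT, and AT1G25098 is the non-coding RNA named above. The coding sequences of AT1G24800, AT1G24881, AT1G25055 and AT1G25150 were identical over 1302 bases, and that of AT1G25211 differed from them at 2. Coding positions 311 to 430 are shown with a differing base in capitals (RefSeq, TAIR10.1, plus strand). The stretch is shown because reads wholly within the coding sequence that miss both positions cannot separate the 5 genes. AT1G24800 stands for the 4 identical copies.
AT1G24800: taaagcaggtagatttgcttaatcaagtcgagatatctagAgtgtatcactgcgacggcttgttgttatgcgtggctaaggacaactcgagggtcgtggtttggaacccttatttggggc
AT1G25211: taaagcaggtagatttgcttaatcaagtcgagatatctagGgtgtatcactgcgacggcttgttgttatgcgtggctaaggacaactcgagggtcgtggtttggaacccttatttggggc

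The run was not limited to the F-box genes. Its span held 19 other listed genes, and all 19 were higher in both fer-4 libraries than in both WT libraries. Of them, 9 were tested and 8 were called. The rest averaged under 1 FPKM, and some lay near the floor. AT1G25025, for example, measured 0.021 and 0.0359 FPKM in fer-4 and 0 in both WT libraries. AT1G25175, a non-coding RNA, measured 101 and 97.8 FPKM in fer-4 and 0 and 5.68 FPKM in WT, which put WT replicate 2 just above the limit. AT1G24880, a deacetylase family gene, measured 74.2 and 67.5 FPKM in fer-4 and 0.857 and 4.11 FPKM in WT. At the far end, AT1G25220 (ASB1), a subunit of anthranilate synthase in tryptophan synthesis, measured 54.3 and 67.9 FPKM in fer-4 and 34.6 and 28.4 FPKM in WT (log2 fold change 0.93, limma adjusted p = 0.00764). Several of these genes are repeated copies, overlap a neighbour or share a Locus entry with one, so they are not independent.

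**Figure D4:**
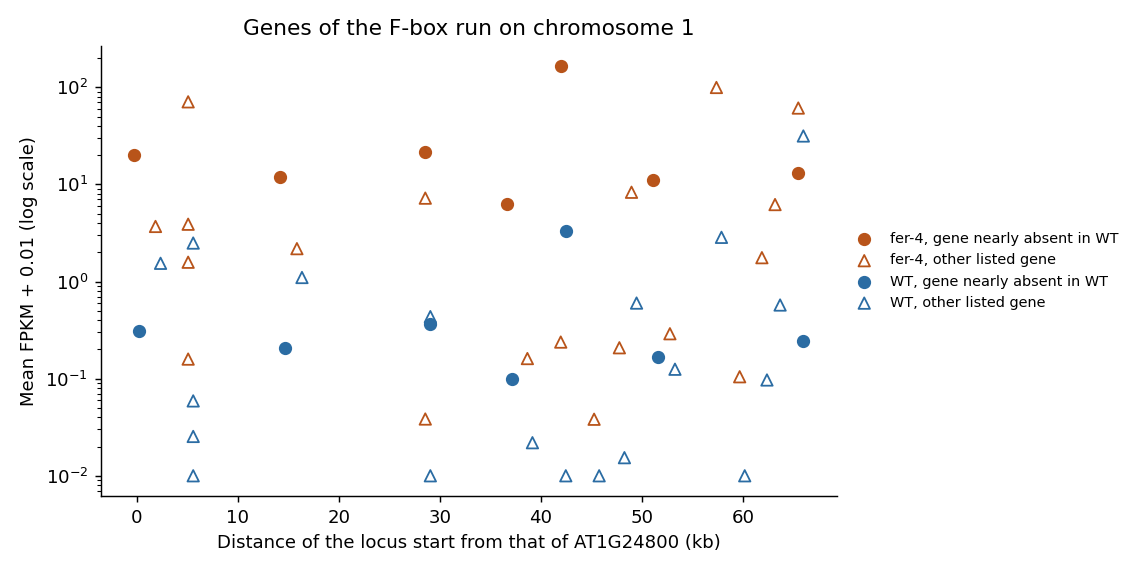
Mean FPKM (n = 2) plus 0.01, on a log scale, against the distance in kb of each locus from the start of AT1G24800, for fer-4 (orange) and WT (blue). Filled circles are the 7 genes nearly absent in WT and open triangles the 19 other listed genes. The fer-4 mean of each gene lies above its WT mean, and genes with the same Locus entry share a position.

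On chromosome 4, a run of 3 genes with a SPRY domain, a protein interaction module, spanned 46.1 kb (5859256 to 5905372). AT4G09200 measured 10.6 and 9.54 FPKM in fer-4 and 0 and 0.301 FPKM in WT. AT4G09310 measured 13.6 and 13 FPKM in fer-4 and 0 and 0.298 FPKM in WT, and AT4G09250 measured 7.94 and 7.91 FPKM in fer-4 and 0 and 0.231 FPKM in WT. AT4G09200 and AT4G09310 have the same 1194 bases of coding sequence, and AT4G09250 lacks 144 of these and is identical over the other 1050, so reads divide among the 3 in an unknown way. The first 120 coding bases of AT4G09200 are shown because they are the same in all 3 (RefSeq, TAIR10.1, plus strand).
AT4G09200: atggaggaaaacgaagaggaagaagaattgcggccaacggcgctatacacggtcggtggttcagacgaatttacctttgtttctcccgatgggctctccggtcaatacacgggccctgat

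A longer run on chromosome 4 covered 111 kb (10527799 to 10639001) and held both directions. AT4G19240, present in WT, lies 96.6 kb from AT4G19500, a nucleotide-binding receptor gene with 20.1 and 18.9 FPKM in fer-4 and 0.0123 and 0.694 FPKM in WT. AT4G19510 follows 2.11 kb further. Between the ends, 11 other genes were tested and 6 were called, all higher in fer-4. Among them, PAE7, a pectin acetylesterase gene of the cell wall, measured 168 and 187 FPKM in fer-4 and 111 and 86.2 FPKM in WT (log2 fold change 0.85, limma adjusted p = 0.00954). VPS54, a vesicle tethering gene, measured 27.4 and 27.5 FPKM in fer-4 and 17.5 and 17.3 FPKM in WT (0.63, adjusted p = 0.0041).

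A single run held 2 genes present in WT and no other member. AT3G60950 was at 0 in both fer-4 libraries and measured 15.4 and 15.9 FPKM in WT, and AT3G61030, 53.2 kb away on chromosome 3, was at 0 in both fer-4 libraries and measured 9.15 and 7.75 FPKM in WT. Both are described as lipid-binding proteins, and their proteins were 84.4% identical over 90.7% of the AT3G60950 protein. Of 5 other tested genes in the span, 3 were called, all lower in fer-4: AT3G60960, AT3G60980 and AT3G61010, with log2 fold changes between -0.64 and -0.62. The tetratricopeptide repeat gene AT3G60980, for example, measured 11.1 and 11 FPKM in fer-4 and 17.3 and 17.8 FPKM in WT (limma adjusted p = 0.00547).

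The other 6 runs were pairs present in fer-4. The disease resistance genes AT1G63860 and AT1G63880 flanked AT1G63870, a gene of the same description that was at most 0.0635 FPKM in any library. AT1G66090 and the thionin gene AT1G66100 lay 0.907 kb apart. The pseudogenes AT2G13970 (7.99 and 7.52 FPKM in fer-4, 0.0999 and 0.358 FPKM in WT) and AT2G13975 (16.7 and 17.3 FPKM in fer-4, 0 and 0.465 FPKM in WT) lay 0.082 kb apart. The non-coding RNAs AT1G60505 and AT1G60525 averaged 8.34 and 6.59 FPKM in fer-4 and 0.0664 and 0.103 FPKM in WT. The pseudogene AT3G43690 and the leucine-rich repeat gene AT3G43740 averaged 20.2 and 24.7 FPKM in fer-4 and 0.280 and 0.572 FPKM in WT. Between them, the lipid-transfer gene LTPG2 was lower in fer-4 (32.5 and 31.7 FPKM in fer-4, 51.1 and 56.1 FPKM in WT, log2 fold change -0.72, limma adjusted p = 0.00325). The uncharacterized gene AT5G51620 measured 21.9 and 21.4 FPKM in fer-4 and 0 and 0.0808 FPKM in WT, and it lay 1.19 kb from the disease resistance gene AT5G51630.

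Genes next to the members were called more often than genes at large. The nearest listed gene on each side that was not itself all-or-none gave 178 genes, of which 122 were tested. Of these, 65 were called (53.3%), beside 23.3% of all 19183 tested genes, with 50 higher and 15 lower in fer-4. Their median absolute log2 fold change was 0.61, against 0.22 over all tested genes. Beside the genes present in fer-4, 45 of 106 were higher and 14 lower, and beside those present in WT 5 of 16 were higher and 1 lower. The share was 58.9% for genes within 2 kb (43 of 73) and 44.9% for those farther away (22 of 49). Outside the runs it was 51.1% (48 of 94). With either WT library left out, 43 of 124 were called (34.7%), beside 10.4% of all tested genes without WT replicate 1 and 9.21% without WT replicate 2.

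The largest changes next door included copies of members' neighbours in the F-box run. Elsewhere, AT1G23950, beside AT1G23960, measured 20.5 and 20.2 FPKM in fer-4 and 0.389 and 1.14 FPKM in WT. AT5G26260, beside AT5G26270, measured 317 and 373 FPKM in fer-4 and 59.3 and 49.5 FPKM in WT. RPP4, an NLR gene for resistance to downy mildew, lies beside the pseudogene AT4G16870 and measured 25.7 and 18.0 FPKM in fer-4 and 2.66 and 3.31 FPKM in WT (log2 fold change 2.50, limma adjusted p = 0.000626). Moving outward, 41.7% of genes were called at the second place, 36.2% at the third and between 28.2% and 36.2% from the fourth to the tenth, all above the 23.3% over all genes. Whether gene clusters, expression level or overlapping transcripts contribute was not tested.

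**Figure D5:**
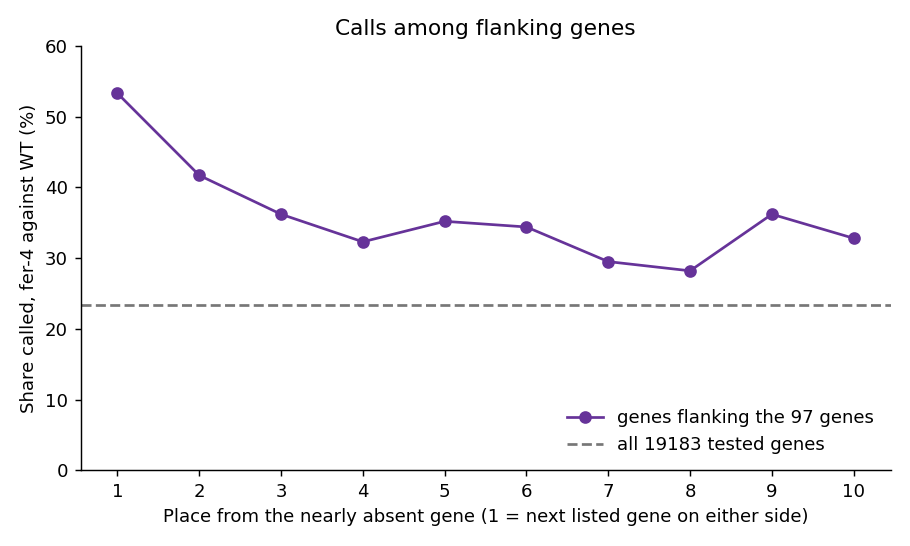
Share of tested genes called between fer-4 and WT, in percent, against their place from the 97 genes, counted outward on both sides over listed genes that are not all-or-none. The dashed line is the 23.3% called over all 19183 tested genes. The share is 53.3% at the first place and 32.8% at the tenth.

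Members overlapped other genes about as often as the comparison genes did. In all, 31 of the 97 overlapped another annotated gene (32%, against 33.7%), 26 of them on the other strand (26.8%, against 29.3%), and 12 shared a Locus entry in the files with another gene. Of the 16 non-coding members, 10 overlapped a gene on the other strand. Of 12 protein-coding partners that were tested, 10 were called higher and 1 lower in fer-4, beside 14.3% higher and 9.00% lower over all tested genes. Several of the 12 overlap members of the runs described above. AT2G21860, for example, measured 20.5 and 19.1 FPKM in fer-4 and 3.14 and 4.89 FPKM in WT opposite AT2G21850 (log2 fold change 2.07, limma adjusted p = 0.000951). AT4G13870, an exonuclease gene opposite AT4G13860, was not called, with 4.48 and 4.93 FPKM in fer-4 and 4.85 and 4.99 FPKM in WT. AT4G13860 measured 7.80 and 7.66 FPKM in fer-4 and was listed in neither WT library.

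The limit of 5% fell in a dense range of values among genes present in fer-4. Just inside it were AT3G60150 (4.996%), AT4G07507 (4.94%) and AT1G53903 (4.91%), by the higher WT library as a share of the fer-4 mean. Just outside were AT1G54020 (5.19%), AT1G65370 (5.31%) and AT3G26240 (5.54%). Among genes present in WT, AT4G24420 (1.36%) and AT1G19550 (1.34%) followed AT2G02700 inside, and AT3G27884 (7.41%), AT3G24255 (8.33%) and AT1G26250 (9.83%) were the nearest outside. Under a limit of 2%, 14 of the 82 genes present in fer-4 remained, and 14 of the 15 present in WT. For the 82, the lower quartile in WT replicate 2 was 2.36% of the fer-4 mean, while the upper quartile in WT replicate 1 was 0.37%.

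The other 27 members were present in fer-4, with means between 5.32 and 30.1 FPKM, and comprised 13 protein-coding genes, 9 non-coding RNAs and 5 pseudogenes. In WT replicate 1 they were at most 0.122 FPKM and 22 were not listed, and in WT replicate 2 they were at most 1.09 FPKM. The protein-coding genes were AT1G35320, AT1G67148, AT1G76960, AT2G10931, AT2G41440, AT3G18535, AT3G47680, AT3G62460, AT4G14905, AT4G36515, AT5G16980, AT5G28919 and AT5G56380. Among them, AT2G41440 is described as a MADS-box protein of the AGAMOUS-like kind and AT5G56380 as an F-box protein. AT1G67148 was listed in neither WT library. The non-coding RNAs were AT1G52347, AT2G09795, AT2G15292, AT2G24755, AT3G06125, AT3G27990, AT3G44798, AT4G01593 and AT5G23410. The pseudogenes were AT2G06950, AT3G24927, AT4G08110, AT5G42730 and AT5G55896. The highest of the 27 was AT2G15292, with 33.4 and 26.8 FPKM in fer-4 and 0 and 0.480 FPKM in WT.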

How the data were processed

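Gene-level FPKM per library were used as the authors deposited them, with the unit named per the file headers. Per the submitters' processing notes, CASAVA, HISAT2 2.0.5, StringTie 1.3.3 and the build TAIR10 were used, with no roles or settings. The strand setting, the annotation release and the treatment of multiply mapped reads were not given in the sources used here. Genes missing from a file were set to 0, and the 5 FPKM and 5% limits were applied to each library. Genes averaging 1 FPKM or more were compared on log2(FPKM + 1), a scale that understates changes of low genes, with limma-trend 3.58.1 in R 4.3.3, Benjamini-Hochberg adjustment and a threshold of 0.05. The fit was tested on simulated data. Depth is an estimate: the lowest listed values of single-exon genes over 500 bp clustered at 46.8 to 51.1 FPKM times bp, read as 1 fragment.

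Classes, descriptions and sequences came from RefSeq TAIR10.1, matched by identifier (24039 of 24252 genes, all 97 members). The Locus entry overlapped the annotated gene in all but 1 of the 24039. Runs are members within 100 kb of the next. Copies were searched with BLAST+ 2.17.0 (identity and cover of 80% for proteins, identity of 95% and cover of 80% for gene sequences). Where next-door genes shared a Locus entry, 1 was taken. Named genes are all members present in WT, the 12 highest in fer-4, members in runs, 3 genes on each side of the limit and FER; further genes were named after their values were seen. Members and lists were chosen with earlier results of these data known. Same-numbered libraries of the 2 genotypes did not deviate together (correlation -0.22). With 2 libraries per genotype this cannot show if they were handled in pairs.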

Additional observations from a re-analysis of the deposited data

How the results depend on the processing

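A minimum of 2 FPKM gave 124 genes present in fer-4 and 23 present in WT, and 10 FPKM gave 54 and 9. A limit of 2% gave 14 genes present in fer-4, as most of the 82 lay above it in WT replicate 2. Leaving out 1 library gave 83 to 97 genes present in fer-4 and 15 to 18 present in WT. Of the 82 genes present in fer-4, 76 remained without fer-4 replicate 1 and 78 without fer-4 replicate 2. Leaving out a WT library could only add to the 82. All 15 present in WT remained throughout. Over all tested genes, leaving out 1 library gave 1283 to 2742 higher and 490 to 1854 lower in fer-4, and over unnamed genes 700 to 1310 higher and 234 to 863 lower, with the lowest counts without either WT library. Of the next-door genes, 28 were called with a change of at least 2-fold, and 43 to 67 were called with 1 library left out. At 95% identity, 13 members had a close copy. With the replicate number as a block, 2410 genes were higher and 1362 lower (1202 and 650 unnamed), and 61 next-door genes were called. The labels do not say if equal numbers pair the libraries. The crossed pairing, chosen after seeing the data like the leave-outs of next-door genes, gave 3315 higher and 2366 lower (1608 and 1033 unnamed). Of 873 values of single members under other settings, 0 reversed and 160 moved by more than 1 SD. The rule had fixed each member's direction, so nothing is read from the 0. The cause of each shift was not tested, beyond the change of limit or sample number itself.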
